A study of Mus musculus with 20 samples.

Results

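The serum amyloid A genes are a small family of apolipoprotein genes, and the mouse members measured here are Saa1, Saa2, Saa3 and Saa4. They were taken by gene symbol from both deposited RNA-seq tables and joined by Ensembl gene identifier. All 4 were listed in both tables, out of 18149 genes that the tables share. The male table listed 56884 genes, of which 26580 had a mean of 0, and the female one listed only genes that the male table also holds. The smallest mean in the female table was 6.61, with 0 genes at a mean of 0. A gene not listed in females therefore has no female value here, and its absence from the liver cannot be read from that.

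The study used RNA-seq of whole liver from mice aged 11 to 14 weeks, with 3 WT and 3 Midn-T animals of each sex and no further treatment. Midn encodes midnolin, a protein that takes other proteins to the proteasome. By their labels the WT mice were Midn XTR, a gene-trap cassette that leaves the gene expressed, and in the Midn-T mice Cre had turned the cassette into its trapped state, with GFP switched on. Cre was driven by the Albumin promoter, so the trap was directed at hepatocytes. Whether other liver cells kept Midn was not tested.

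Each table gave 1 level per gene, the authors' mean of the normalized counts over the 6 livers of a sex, WT and Midn-T together. Values of single livers, the spread between them and the depth of each library are therefore unknown. The columns in which the authors compared Midn-T with WT were not used. From the means alone, the level of a gene cannot be split by genotype, and Midn was not used to check the labels. What follows describes the levels of the 4 genes and compares the male with the female mean. That comparison has no replicate check and no p-value, and sex cannot be told apart from an effect of Midn-T within 1 sex.

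Serum amyloid A proteins are secreted by the liver and circulate on high-density lipoprotein. In infection or injury, interleukin 1, interleukin 6 and tumour necrosis factor signal to hepatocytes, and NF-kB, C/EBP factors and STAT3 raise transcription of the acute phase members. Saa1 and Saa2 are the main acute phase members of the liver. Saa3 is also made outside the hepatocyte, among other places in macrophages and adipocytes, and Saa4 is the constitutive member, which is expressed without inflammation.

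The 4 genes lie in a cluster of 42.3 kb on mouse chromosome 7 (GRCm39, GENCODE M39). Saa3 (ENSMUSG00000040026, chr7:46361422-46365576) is followed by Saa4 (ENSMUSG00000040017, chr7:46377406-46382035), then by Saa1 (ENSMUSG00000074115, chr7:46389916-46392547), all on the minus strand. Saa2 (ENSMUSG00000057465, chr7:46401214-46403737) is on the plus strand, so Saa1 and Saa2 are transcribed away from each other, with 8.67 kb between their annotated starts. The canonical transcript of each member has 4 exons. The pseudogene Saa-ps (chr7:46384211-46386095, minus strand) lies between Saa4 and Saa1. Its mean was 0.413 in males, and it was not listed in the female table. A long noncoding RNA on the minus strand, Gm74180, overlaps Saa1, Saa2 and the pseudogene, and neither table listed it. Because the male table also lists genes with a mean of 0, the level of Gm74180 is unknown rather than 0. The authors counted reads on another annotation release than the one used for this map. Whether that release holds Gm74180 was not checked.

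**Figure D1:**
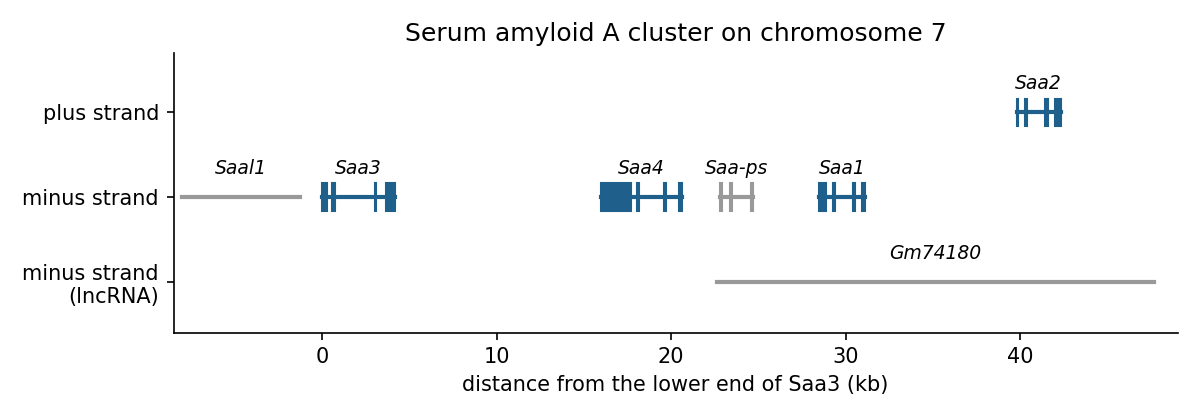
Map of the serum amyloid A cluster, with the distance from the lower end of Saa3 in kb on the horizontal axis and a row for each strand. Boxes are exons of the canonical transcripts and lines are gene spans, members in blue and other genes in grey, with Saal1 cut off at the left. Saa3, Saa4 and Saa1 run on the minus strand, Saa2 on the plus strand.

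Saa1 and Saa2 are near-identical copies, so windows of their transcripts were searched for copies, as given below, to see whether reads can be assigned to one of them. Their proteins are identical at 92.6% of aligned residues, and their coding sequences at 95.1%. Between the other pairs of members the protein identity is between 50.8% (Saa2 with Saa4, and Saa3 with Saa4) and 64.8% (Saa1 with Saa3). The coding sequences of Saa1 and Saa2, 366 bases each, differ by 18 substitutions. Counted from the first base of the start codon, the first is at position 73 and the last at position 359. The longest run of coding sequence the pair shares without a difference is 73 bases long and lies in exon 4. It is printed below with the aligned bases of Saa3 and Saa4, which show how far the rest of the family is from the pair. Capitals mark bases that differ from Saa1, 18 in Saa3 and 20 in Saa4. The stretches are at chr7:46390139-46390211 (Saa1, minus strand), chr7:46403450-46403522 (Saa2, plus strand), chr7:46361561-46361633 (Saa3, minus strand) and chr7:46378957-46379029 (Saa4, minus strand) in GRCm39.
Saa1: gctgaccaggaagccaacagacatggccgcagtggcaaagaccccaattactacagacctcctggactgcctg
Saa2: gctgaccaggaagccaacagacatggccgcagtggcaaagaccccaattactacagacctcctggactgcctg
Saa3: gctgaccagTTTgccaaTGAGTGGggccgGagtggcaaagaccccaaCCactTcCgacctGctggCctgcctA
Saa4: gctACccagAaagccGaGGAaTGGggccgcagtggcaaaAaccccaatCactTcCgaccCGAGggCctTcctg

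The likeness of the pair reaches into the promoters. The 250 bases before the RefSeq start of Saa1 (chr7:46392405-46392654, minus strand) and of Saa2 (chr7:46401007-46401256, plus strand) are the same at 238 of 251 aligned positions, or 94.8%. They are shown because the levels of these 2 genes lay close together in their male to female difference. Whether the promoters have a part in that difference was not tested. Capitals mark the bases that differ between them or are missing from the other.
Saa1: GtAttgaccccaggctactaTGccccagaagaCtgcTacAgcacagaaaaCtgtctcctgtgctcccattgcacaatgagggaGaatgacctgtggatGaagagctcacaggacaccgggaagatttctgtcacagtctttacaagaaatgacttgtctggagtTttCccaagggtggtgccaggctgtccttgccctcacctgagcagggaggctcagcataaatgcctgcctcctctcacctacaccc
Saa2: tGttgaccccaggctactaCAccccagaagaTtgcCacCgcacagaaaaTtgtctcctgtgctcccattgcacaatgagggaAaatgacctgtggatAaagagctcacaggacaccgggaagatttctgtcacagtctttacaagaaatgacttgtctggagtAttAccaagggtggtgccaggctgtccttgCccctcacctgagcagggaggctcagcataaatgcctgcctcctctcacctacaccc

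Over the RefSeq promoters, which run from 250 bases before to 50 after a start, any other pair of members was identical at 43.3% to 49.8% of aligned positions. Motifs were searched as exact letters on both strands in these promoters. None of the motifs named here was found in a promoter of a member, while 64.2% of promoters held at least 1 of those searched. They were the NF-kB motif, found in 8.46% of 32851 promoters, a C/EBP pattern, TTGCNNCAA (2.08%), and the STAT motif TTCNNNGAA (8.30%). The rest were the glucocorticoid receptor motif ACANNNTGT (6.85%), the AP-1 motif TGANTCA (7.81%), the TATA box TATAAA (13.6%) and the SP1 motif GGGCGG (35.7%). The search says only that these letters are not in these windows. Both the Saa1 and the Saa2 promoter printed above hold ttgcacaa, a shorter stretch that TTGCNNCAA cannot match. Shorter C/EBP spellings were not searched, so a lack of C/EBP sites cannot be read from this. Near their ends both promoters also hold cataaa, which differs from TATAAA at 1 letter. Variants of the TATA box were not searched either, so a lack of a TATA-like site cannot be read from the search. From 1000 bases before to 50 after the GENCODE gene start, which lies 8 to 476 bases upstream of the RefSeq start in the 4 members, each member held a match of at least 1 motif, as did 93.3% of 21770 windows of this length. That window ended before the RefSeq start in Saa1, where the starts are 143 bases apart, and in Saa3, where they are 476 apart. In Saa3 it shared no base with the RefSeq promoter. Saa1 and Saa2 held neither an NF-kB match nor a match of TTGCNNCAA in the wider window. Saa3 held an NF-kB match at positions -496 to -487 and a TTGCNNCAA match at -78 to -70, beside 19.3% and 8.80% of all windows. These positions count back from the GENCODE gene start, so both matches lie more than 476 bases before the RefSeq start of Saa3. STAT matches were in Saa1 and in the constitutive Saa4 (29.99% of windows), and glucocorticoid receptor matches in Saa1, Saa3 and Saa4 (26.2%). Saa2 held an AP-1 match (25.4%) at -996 to -990. Its matches of the TATA box letters (48.6%) were at -740 to -735, -637 to -632 and -492 to -487, far from where a TATA box lies.

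In both sexes Saa4, the constitutive member, had the highest mean and Saa3 the lowest. Saa4 had an authors' mean of 9939 normalized counts in males and 6256 in females. Saa1 followed at 3869.5 in males and 486 in females, and Saa2 at 1562 and 209.5. Saa3 had 143 in males and 56.2 in females. The order Saa4, Saa1, Saa2, Saa3 was the same in the male and female tables. Whether neighbours in that order differ beyond the spread between livers cannot be told from 1 mean per table.

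**Figure D2:**
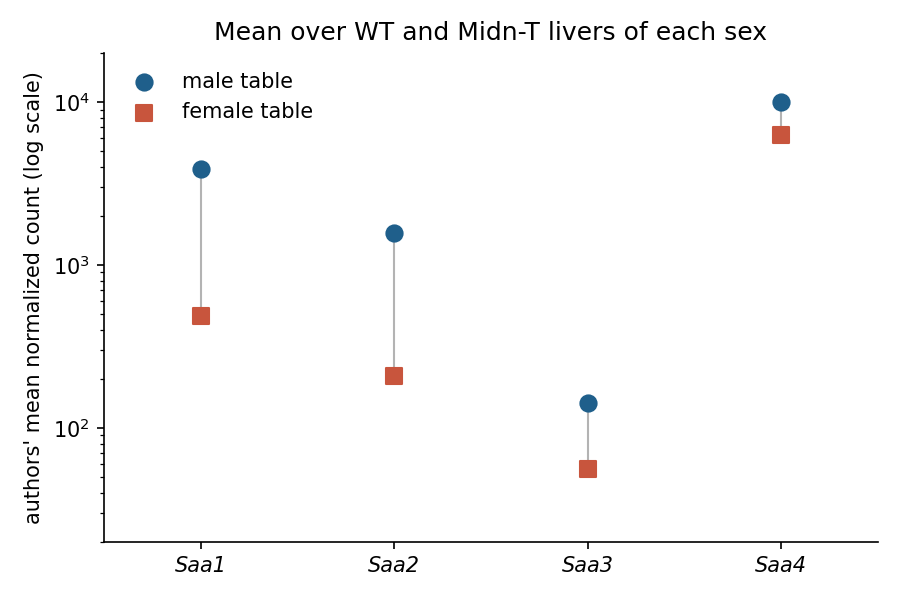
Authors' mean normalized count of each serum amyloid A gene on a log axis, with a circle for the male and a square for the female table, and no error bars because each table holds 1 mean over 6 livers. All 4 genes had the higher mean in males, with the widest gaps in Saa1 (3869.5 and 486) and Saa2 (1562 and 209.5).

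To compare genes with each other, means were divided by gene length, taken as all exon bases of a gene in GENCODE M39. The authors counted reads on another annotation release, so some of these bases may not have been counted. On this scale Saa4 reached 3166 normalized counts per kb in males and 1993 in females. Saa1 had 1470.2 per kb in males and 185 in females, Saa2 had 619 and 83.0, and Saa3 had 45.9 and 18.0. Saa4 was thus 2.15 times the level of Saa1 in males and 10.8 times in females. The place of Saa4 above Saa1 in males depended on the length used. Much of the annotated exon length of Saa1 and Saa2 lies outside the canonical transcript, which has 757 of 2632 bases in Saa1 and 2118 of 3139 in Saa4. Divided by the canonical transcript, the male level of Saa1 was 5112 per kb against 4693 for Saa4. In females Saa4 stayed above Saa1 on that scale, at 2954 against 642.

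Among 18045 shared genes with a known length, the per kb level of Saa4 was above 98.5% of genes in males and 97.6% in females. Saa1 was above 97.0% of genes in males and 78.4% in females. Saa2 was above 92.9% and 60.7%, and Saa3 above 48.1% and 28.4%. By mean, Saa4 ranked 378th among all genes of the male table and 651st in the female table, and Saa1 ranked 1162nd and 6679th, so all 4 members stood lower in females. Of the summed means of the family, Saa4 made up 64.1% in males and 89.3% in females. Saa1 made up 24.9% in males and 6.93% in females, Saa2 made up 10.1% and 2.99%, and Saa3 made up 0.922% and 0.802%. These shares use means that were not divided by length, so they are not shares of transcript molecules. The canonical transcript has 2118 bases in Saa4 against 757 in Saa1 and 652 in Saa2, which raises the share of Saa4. The whole family held 0.0512% of all normalized counts in the male table and 0.0228% in the female table.

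All 4 members had a lower mean in females than in males. The 2 tables were normalized separately, so the female over male ratio was rescaled to a median of 1 over the 16283 genes with a mean of at least 10 in both. After rescaling by 1.04, Saa1 had a female over male ratio of 0.121, or 8.25-fold higher in males (log2 ratio -3.04). Saa2 had a ratio of 0.130, or 7.72-fold higher in males (log2 ratio -2.95). Saa3 had a ratio of 0.379, or 2.64-fold higher in males (log2 ratio -1.40), and Saa4 had 0.608, or 1.65-fold higher in males (log2 ratio -0.72). In bulk liver, fewer cells that express a gene and less of its RNA per cell cannot be told apart.

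Of the 4 members, 3 were at least 2-fold lower in females, beside 245 of the 16283 genes, or 1.50%. At least 2-fold higher in females were 0 members and 1.99% of the genes. The middle of the distribution was narrow, with quartiles of the log2 ratio at -0.18 and 0.23. A count of 28 genes, or 0.172%, had a lower ratio than Saa1, and 29, or 0.178%, a lower one than Saa2. For Saa3 the share was 0.780% and for Saa4 2.86%. The direction was the same in all 4 members with no rescaling, with rescaling by the summed means and with a minimum mean of 100. The ratio of Saa1 stayed between 0.121 and 0.126. These scalings differ too little to turn the direction of any member, and they do not address the spread between livers.

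**Figure D3:**
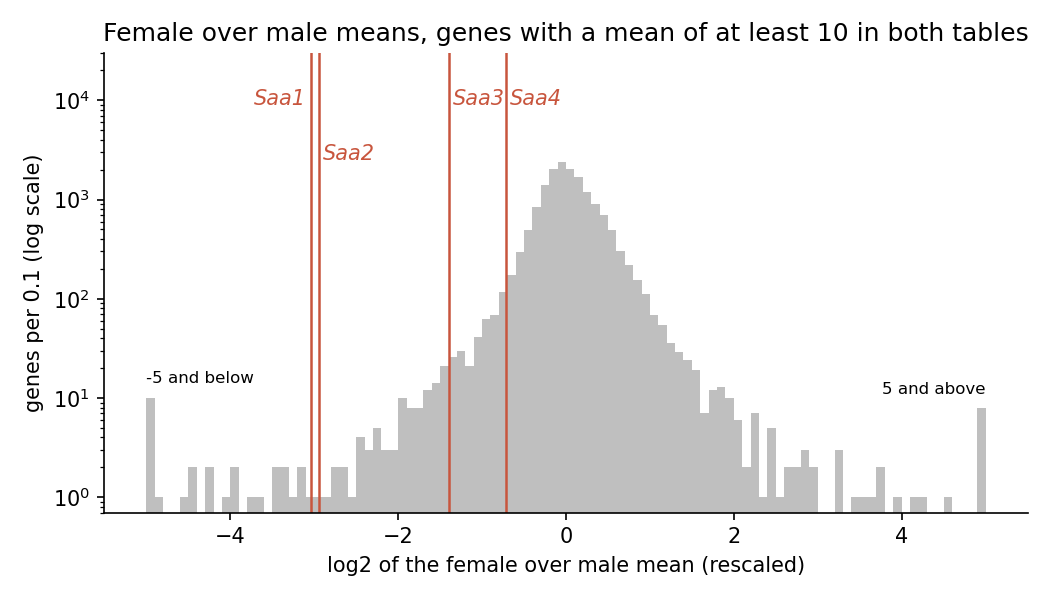
Distribution of the log2 female over male ratio of 16283 genes, rescaled to a median of 0, as genes per 0.1 on a log axis, with ratios beyond the axis gathered in the outer bars. Vertical lines mark Saa1 (-3.04), Saa2 (-2.95), Saa3 (-1.40) and Saa4 (-0.72), all left of the middle, with Saa1 and Saa2 far into the tail.

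The 2 near-identical genes kept almost the same proportion to each other in both sexes. The mean of Saa1 was 2.48 times that of Saa2 in males and 2.32 times in females. Their distance from the other members changed more. Saa4 had 2.57 times the mean of Saa1 in males and 12.9 times in females, and Saa2 had 10.9 times the mean of Saa3 in males and 3.73 times in females.

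Copies of sequence were counted because the authors kept uniquely mapped reads only, so that a read that fits both Saa1 and Saa2 would be lost from both. Every window of 150 bases, the read length, was found at 1 place only in the canonical transcripts of all 4 members. This held for 608 windows of Saa1, 503 of Saa2, 858 of Saa3 and 1969 of Saa4, also when copies with 1 mismatch in another serum amyloid A transcript were counted. The closest windows of Saa1 and Saa2 differed at 5 bases. For windows of 75 bases the share found once was 96.3% in Saa1 and 95.2% in Saa2, and 100% in Saa3 and Saa4. For windows of 31 bases it was 68.1% in Saa1, 71.4% in Saa2, 96.9% in Saa3 and 95.5% in Saa4. Over all annotated transcripts, which include retained introns, 72 of 3996 distinct windows of 150 bases in Saa1 and 72 of 2867 in Saa2 had a copy, so that 98.20% and 97.49% were found once, and in Saa3 and Saa4 0 had a copy. The copies of the Saa1 windows lay in Saa2 and those of the Saa2 windows in Saa1, where Gm74180 overlaps both. How many reads were lost this way was not tested.

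**Figure D4:**
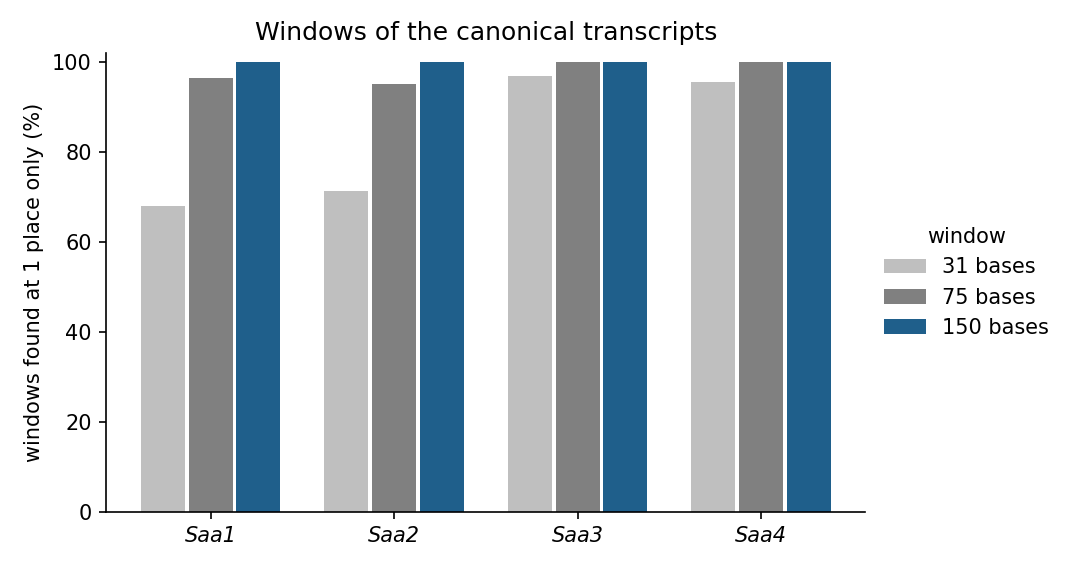
Share of windows of 31, 75 and 150 bases in the canonical transcript of each member that occur at 1 place only in the genome and annotated transcripts, in percent. At 150 bases all bars reach 100%, and at 31 bases Saa1 (68.1%) and Saa2 (71.4%) are below Saa3 (96.9%) and Saa4 (95.5%).

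Other positive acute phase genes had no lower median in females. Of 30 genes in the list, 29 had a mean of at least 10 in both tables, and their median female over male ratio was 1.09. Of these, 1 was at least 2-fold lower in females and 4 were at least 2-fold higher, and 11 of the 29 had a ratio below 1. The lower one was haptoglobin, Hp, which binds free haemoglobin, at a ratio of 0.468. The 4 higher ones were the metallothioneins Mt2 (3.77) and Mt1 (2.85), the alpha-1-acid glycoprotein Orm3 (2.74) and the interleukin 1 receptor antagonist Il1rn (2.56). The 3 genes of the list with the highest level per kb in males were Hpx, C3 and Hp. Hemopexin, Hpx, had a ratio of 0.624, and the complement component C3 had a ratio of 1.39. Lipocalin 2, Lcn2, another bacterial defence protein of the acute phase, had 0.522. Orm, metallothionein and Serpina3 genes are families of close copies, and whether reads of their members were split was not tested.

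The cytokines, receptors and factors that act on the acute phase genes came next. Of 26 genes, 24 were compared, with a median ratio of 0.890, and 0 were past 2-fold in either direction. Il6 (interleukin 6, 3.11 in males) and Tnf (tumour necrosis factor, 10.9 in males) were not listed in the female table. The lowest ratio was 0.530, in the transcription factor gene Cebpd, with 180.4 normalized counts in males and 99.1 in females. Cebpb, which encodes another C/EBP factor, had 0.688, the interleukin 1 receptor gene Il1r1 had 0.676 and its accessory chain Il1rap had 0.707. Stat3 had a ratio of 0.958, the interleukin 6 receptor Il6ra 0.843 and the NF-kB subunit Rela 0.873. The 3 highest per kb in males were the hepatocyte factors Hnf4a, Cebpa and Creb3l3.

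Lipoprotein genes and receptors for the proteins were compared in the same way. Among 9 genes of lipoproteins and carriers, the median ratio was 0.953 and 0 were past 2-fold. Apoa1, the main protein of high-density lipoprotein, had 0.709, Apoe 0.953 and Apob 0.864, and these were the 3 highest per kb in males. Among 8 receptor genes for serum amyloid A proteins the median was 0.881 and again 0 were past 2-fold. Scarb1, the scavenger receptor for high-density lipoprotein, had 0.875, the formyl peptide receptor Fpr1 had 0.848 and the fatty acid receptor Cd36 had 1.76. The lowest ratio was that of Tlr2, a receptor for microbial lipoproteins, at 0.533.

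**Figure D5:**
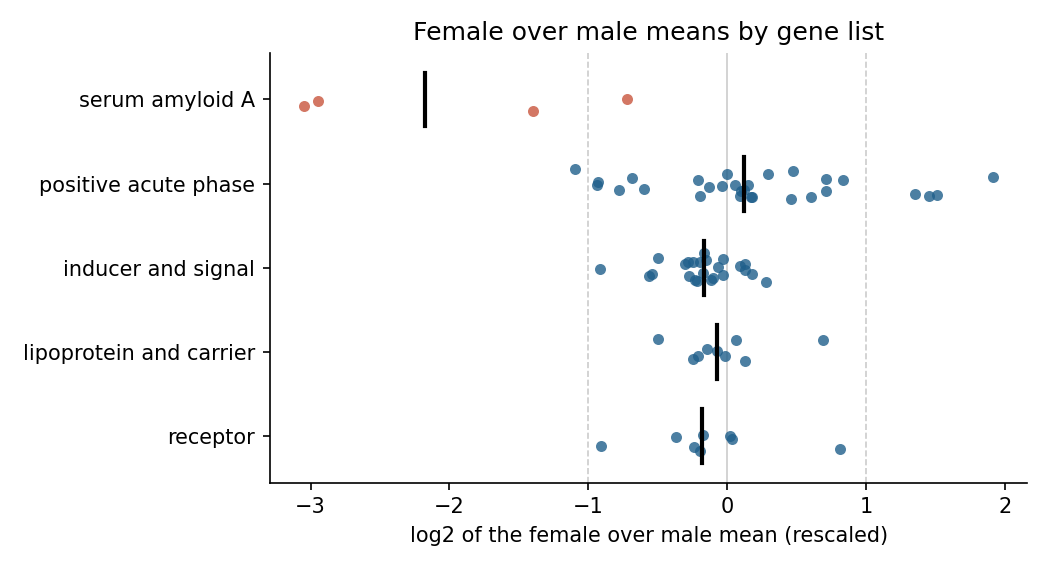
Log2 female over male ratio, rescaled, of the genes in each list, with 1 point per gene, a black bar at the median, and dashed lines at 2-fold in each direction. The serum amyloid A points (red) reach -3.04, and no gene of the other lists (blue) lies left of Saa3 at -1.40.

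The level of the members was set beside markers of the cells that liver holds. Hepatocyte markers (6 of 6 compared) had a median ratio of 0.950. Alb, the albumin gene that defines hepatocytes, had 338346 normalized counts per kb in males and 457261 in females. Kupffer cell and macrophage markers (6 of 6) had 0.970. Stellate cell markers (4 of 4) had 1.28, sinusoidal endothelium 1.11, cholangiocytes 1.44 and B and T cells 1.06. The neutrophil markers summed to 45.3 in males and 26.0 in females. Of those 5 markers, S100a9 had a ratio of 0.579, S100a8 had 16.1 in males and 9.45 in females, and Ly6g, Mpo and Elane were under 1 in males and not listed in the female table. The adipocyte markers summed to 18.9 in males and 84.6 in females, with Adipoq at 3.10 and 18.3. The part that these markers had in the serum amyloid A levels was not tested.

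For each member, the protein-coding genes nearest in level were found as the smallest distance in log2 level per kb over the 2 tables, among 13614 genes. With 2 points per gene this is only a description of levels. The genes nearest to Saa1 were Tsku, a secreted leucine-rich protein, at a distance of 0.29, then Alas2 at 0.59 and the major urinary protein gene Mup12 at 0.83. Nearest to Saa2 were the cytochrome P450 genes Cyp2u1 (0.22) and Cyp7b1 (0.34), then Zfp1003 (0.89). Nearest to Saa3 were Chrna2 (0.25), Fgfr1 (0.30) and Pnldc1 (0.32). Nearest to Saa4 were Alas1 (0.015), which makes the first intermediate of haem synthesis, the acute phase gene Lrg1 (0.088) and Cyp4v3 (0.17). Of the genes beside the cluster, Saal1, on the Saa3 side, had a mean of 157 in males and 173 in females. Beyond it lies Gm45629, at 5.28 in males and not listed in females. Hps5, on the Saa2 side, had 769 and 879, and Gm45309 had 24.8 and 32.1.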

How the data were processed

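RNA-seq of liver was analysed for 12 samples, 3 per sex and genotype, and the ATAC-seq samples were not used here. By the study's methods, paired reads of 150 bases from rRNA-depleted libraries were aligned by the authors to GRCm39 with STAR, HTSeq counted uniquely mapped reads per Ensembl gene on the reverse strand, and DESeq2 was run for each sex on its own. The signal column used is a deposited mean, taken over 6 samples after the authors had scaled the counts by size factors. The other columns hold the authors' log2 fold changes with standard errors, Wald statistics and p-values for the genotypes, and were not used. Library depths are unknown, and no interval can be given.

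Means were joined by gene identifier, divided by exon length from GENCODE M39, and compared between sexes after rescaling to a median ratio of 1 over genes with a mean of at least 10. By the study's methods, reads were counted on an Ensembl release other than that of GENCODE M39. Some exon bases used for length may therefore not have been counted. Of the 56884 genes in the male table, 56323 were found in GENCODE M39. No test was possible. Sequence windows were searched on both strands of 61 genome sequences and 481956 transcripts. Motifs were searched in RefSeq promoters, supplied for GRCm38.p6 and placed in GRCm39 by exact match. The rescaling, the window search and the motif search were tested on simulated data, and the other steps were not. Python 3.11.15, numpy 2.4.6, pandas 2.3.3, numba 0.67.0, Biopython 1.88 and matplotlib 3.10.9 were used. The members, lists and markers were chosen with earlier results of these data known. Genes named beyond the members are the 3 highest per kb of each list, the 3 nearest in level to each member, neighbours of the cluster and cell markers. Other list genes, namely those past 2-fold, Lcn2, Il6, Tnf, Cebpd, Cebpb, Il1r1, Il1rap, Stat3, Il6ra, Rela and Tlr2, were named after their values were seen. Some values of the lists are not reported here.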

Additional observations from a re-analysis of the deposited data

How the results depend on the processing

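The female over male direction of the 4 members, and the count of 3 at least 2-fold lower in females, were the same under the 3 other scalings. Those scalings differ too little to change either, so this is no check against the spread between livers. The order of Saa4 and Saa1 per kb depended on the length. Saa4 over Saa1 was 2.15 in males and 10.8 in females, 2.07 and 10.4 with the longest transcript, and 2.09 and 10.5 with bases that start an unambiguous window. With the canonical transcript, chosen after seeing the data, it was 0.918 in males, which reverses the order, and 4.60 in females. Members above the median level per kb numbered 3 in each sex, also among protein-coding genes, and 2 in females among genes with a mean of at least 100. The lowest share of windows found once was 100% at 150 bases, 95.2% at 75 and 68.1% at 31. Members with a motif match numbered 0 in the narrow and 4 in the wide window, beside 64.2% and 93.3% of all promoters. The wide window is longer and starts from another annotation, and in Saa3 it shares no base with the narrow one. No paired analysis was possible because the means pool all samples of a sex. For the same reason no replicate could be left out.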
